A study of Arabidopsis thaliana with 8 samples.

Results

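The genes described here are 10 regulators of flowering time in Arabidopsis thaliana, all known from the photoperiod response or the pathways that join it: CONSTANS (CO, AT5G15840), FT (AT1G65480), TSF (AT4G20370), CDF1 (AT5G62430), CDF2 (AT5G39660), CDF3 (AT3G47500), CDF5 (AT1G69570), FLC (AT5G10140), SVP (AT2G22540) and SOC1 (AT2G45660). They were chosen by locus, and each had 1 of the 30361 features on the array. Their RNA was measured in leaves of 6-week-old soil-grown plants, kept at 22 C in long days of 16 h light and 8 h dark. Wild_Type plants (WT) gave 4 biologically independent RNA samples, and DGTT2_transgenic plants of line 57, which carry a diacylglycerol acyltransferase gene of the alga Chlamydomonas (DGTT2), gave another 4. Since line 57 was the only transgenic line, what DGTT2 does and what else sets the line apart from WT cannot be told apart. The sources used here do not give the promoter that drives DGTT2, the accession of the wild type, the flowering stage of the plants or the hour of harvest.

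Day length is read in the leaf. CO protein is stable only in light, so a long day lets it build up late in the day in the companion cells of the phloem and switch on FT, whose protein moves to the shoot tip and triggers flowering, as does that of its close relative TSF. The CYCLING DOF FACTORS (CDFs) repress CO and FT early in the day until the light-receptor protein FKF1, together with GI, has them degraded. FLC and SVP are MADS-box repressors of FT and SOC1, and SOC1 is the MADS-box integrator that passes the signals on at the shoot tip. Several of these RNAs, those of CO, FT and the CDFs among them, cycle over the day, so a level holds for the hour at which leaves were taken.

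Each RNA sample was hybridised to 1 array of a 4-plex slide, and each of 2 slides held 2 arrays of each genotype. Positions 1 and 2 of each slide held WT and positions 3 and 4 held DGTT2, which means that genotype and position cannot be told apart. Values are on the log2 scale after robust multi-array averaging (RMA), and since every feature has its own probes, the levels of different genes are not compared. Array medians lay between 10.19 and 10.28. The leaf markers RBCS1A and RCA were at means of 15.88 and 15.98 in WT and 15.92 and 15.90 in DGTT2, at the top of the scale, and the phloem markers SUC2 and AHA3 at 15.27 and 15.30 in WT. LHCB1.1, a light-harvesting gene with near-identical copies, was dim, at 6.75 in WT and 7.47 in DGTT2. The shoot apex markers STM, WUS, CLV3 and KNAT1 and the flower markers AG, AP3 and PI had means over all arrays between 5.56 and 6.89, against a median of 5.95 for the 4414 features annotated as pseudogenes, which is used below as a guide to dim signal.

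**Figure D1:**
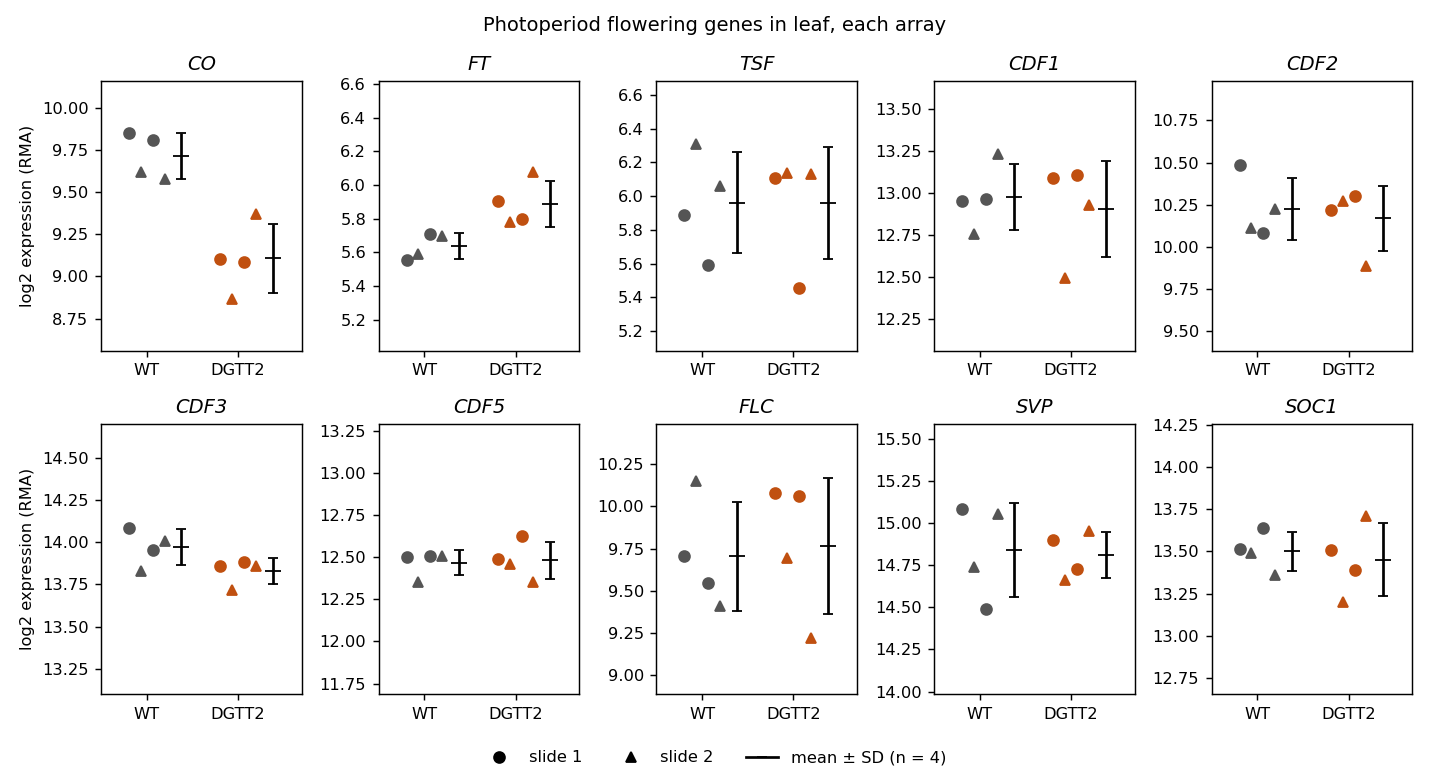
Log2 expression of each gene on each of the 8 arrays, WT in grey and DGTT2 in orange, with circles for slide 1, triangles for slide 2 and the mean ± SD of the 4 arrays of a genotype beside them; every panel spans the same 1.6 log2 units. The genotypes do not overlap in CO, which lay between 9.58 and 9.85 in WT and between 8.87 and 9.37 in DGTT2, nor in FT, whose values were dim; in the other 8 genes they overlap.

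Of the 10 genes, CO had the largest difference between the genotypes, with a lower level in DGTT2, and none passed the test over all features. The threshold was an adjusted p under 0.05 (limma, Benjamini-Hochberg over all 30361 features), which 22 features (0.0725%) reached and 0 of the 10 genes did. When single arrays were left out, as few as 5 features passed (WT replicate 4 left out) and as many as 39 (WT replicate 2 left out), while the count of the 10 genes was 0 each time. At an unadjusted p under 0.05 there were 2 of the 10, CO and FT, against 10.5% of all features. The same 2 genes were those whose genotypes did not overlap, against 5.64% of all features. The median difference of the 10 was -0.04 on the log2 scale, and that of all features -0.001. For the 8 genes other than FT and TSF, which were dim, the 95% interval of the difference lay within 2-fold, as it did for 91.9% of all features.

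CO encodes the zinc-finger protein at the centre of the photoperiod response. Its log2 level in WT replicates 1 to 4 was 9.85, 9.62, 9.81 and 9.58. In DGTT2 replicates 1 to 4 it was 9.10, 8.87, 9.09 and 9.37. Every DGTT2 array thus lay below every WT array, and the highest DGTT2 value, in replicate 4, came within reach of the lowest WT value, also in replicate 4. The means were 9.71 ± 0.14 in WT and 9.11 ± 0.21 in DGTT2 (SD, n = 4 each). This is a log2 difference of -0.61 (SE 0.13, 95% interval -0.89 to -0.32), or a ratio of DGTT2 to WT of 0.656 with an interval of 0.539 to 0.800. By p, CO was at rank 219 among all features, and its adjusted p was 0.128 (limma). The adjusted p was 0.104 with slide as a block. The difference was -0.74 on slide 1 and -0.48 on slide 2, and it lay between -0.70 and -0.53 when single arrays were left out.

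FT and TSF encode the mobile flowering signals, and both were dim in these leaves. FT was at 5.56, 5.59, 5.71 and 5.70 in WT replicates 1 to 4 and at 5.90, 5.78, 5.80 and 6.08 in DGTT2. All DGTT2 values lay above all WT values, by a margin that was narrow between WT replicate 3 and DGTT2 replicate 2. The means were 5.64 ± 0.08 and 5.89 ± 0.14 (SD, n = 4 each), with a log2 difference of 0.25 (SE 0.10, 95% interval 0.02 to 0.48, adjusted p = 0.419, limma). Both means lay under the pseudogene median of 5.95, so FT was not shown to lie above background, and no fold is given. On slide 1 the difference was 0.22 and on slide 2 it was 0.28.

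TSF was at 5.89, 6.31, 5.59 and 6.06 in WT replicates 1 to 4 and at 6.11, 6.13, 5.46 and 6.13 in DGTT2. Replicate 3 was the lowest array of both genotypes, and the genotypes overlapped over nearly their whole range. The means of 5.96 in both genotypes were close to the pseudogene median. The log2 difference was -0.003 (SE 0.20, 95% interval -0.45 to 0.44). Among the 10 genes TSF had the smallest p for a difference between slides, at 0.40 higher on slide 2 than on slide 1 (SE 0.16, adjusted p = 0.485, limma).

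Markers of flowers, where FT and its targets can also be active, were set beside FT. The mean of the 3 flower markers was 5.85 to 6.20 over the WT arrays and 6.30 to 6.52 over the DGTT2 arrays. This mean was thus higher on all DGTT2 arrays than on all WT arrays, at levels near the pseudogene median. Among all 30361 features taken singly, 702 were higher on all DGTT2 arrays. Singly, the genotypes overlapped in each of the 3 and 0 passed the test (limma). AG was at 6.65 in WT and 6.91 in DGTT2 (adjusted p = 0.782), AP3 at 5.54 and 5.91 (adjusted p = 0.519), and PI at 5.81 and 6.36 (adjusted p = 0.381). Of other genes of the flower, CAL differed by -0.64 (SE 0.14), SEP3 by -0.02 (SE 0.41) and LFY by 0.08 (SE 0.26). AP1 differed by 0.24 (SE 0.22) and FUL by 0.12 (SE 0.16). The 4 shoot apex markers overlapped, with means of 5.97 to 6.29 in WT and 5.77 to 6.40 in DGTT2. KNAT1 differed most among them, by -0.45 (SE 0.18, adjusted p = 0.439, limma), and 3 of the 4 had a lower mean in DGTT2. The 3 phloem markers, of the tissue in which FT is made, also overlapped, with means of 14.11 to 14.41 in WT and 14.18 to 14.33 in DGTT2. Of these, SUC2 and AHA3 lay near the upper end of the scale, where values may be compressed, which was not measured. The mean of the mesophyll markers ran from 12.68 to 13.04 in WT and from 13.02 to 13.16 in DGTT2. Singly, the log2 differences were 0.72 in the dim LHCB1.1, 0.04 in RBCS1A and -0.08 in RCA. In LHCB1.1 all DGTT2 arrays lay above all WT arrays (adjusted p = 0.249, limma). The part of these markers in the values of FT and CO was not tested, and in such mixed tissue fewer cells of a type and less RNA per cell cannot be told apart.

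**Figure D2:**
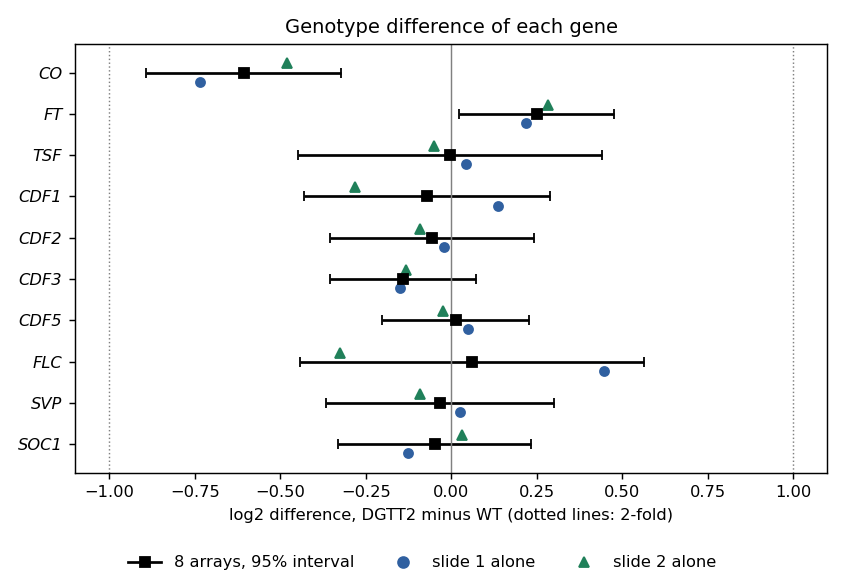
Log2 difference between DGTT2 and WT for each gene, with squares and bars for the estimate and 95% interval over 8 arrays (limma), circles for slide 1 alone and triangles for slide 2 alone. CO at -0.61 and FT at 0.25 have intervals that leave out 0 before adjustment, and FLC has the slides farthest apart, at 0.45 and -0.32.

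Of the 4 CDF genes, the daytime repressors of CO, 0 passed the test, and none had an unadjusted p under 0.05. CDF1 was at 12.95, 12.75, 12.97 and 13.23 in WT replicates 1 to 4 and at 13.09, 12.50, 13.11 and 12.93 in DGTT2. DGTT2 replicate 2 was the lowest of the 8 arrays and WT replicate 4 the highest, and the other 6 arrays lay between. The log2 difference of CDF1 was -0.07 (SE 0.16, 95% interval -0.43 to 0.29). CDF2 was at 10.48, 10.11, 10.08 and 10.22 in WT and at 10.22, 10.27, 10.30 and 9.88 in DGTT2. WT replicate 1 was highest and DGTT2 replicate 4 lowest, with a difference of -0.06 (SE 0.13, 95% interval -0.35 to 0.24).

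CDF3, a family member also known from cold and drought responses, was at 14.09, 13.83, 13.96 and 14.01 in WT replicates 1 to 4. In DGTT2 it was at 13.86, 13.71, 13.88 and 13.86. Of the WT arrays, replicate 2 lay within the DGTT2 range, and the other 3 lay above it. The log2 difference was -0.14 (SE 0.09, 95% interval -0.36 to 0.07, adjusted p = 0.67, limma), with -0.15 on slide 1 and -0.13 on slide 2. CDF5 was at 12.50, 12.36, 12.51 and 12.51 in WT and at 12.49, 12.46, 12.62 and 12.35 in DGTT2, a difference of 0.01 (SE 0.10, 95% interval -0.20 to 0.23). CDF3 and CDF5 varied little within genotypes, with residual SDs of 0.09 each against a median of 0.20 over all features.

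FLC, the MADS-box repressor that vernalization silences, varied most among the 10, with a residual SD of 0.37. It was at 9.71, 10.15, 9.54 and 9.41 in WT replicates 1 to 4 and at 10.08, 9.69, 10.06 and 9.22 in DGTT2. The highest array was WT replicate 2 and the lowest DGTT2 replicate 4, so each genotype held one extreme. Over all arrays the log2 difference was 0.06 (SE 0.22, 95% interval -0.44 to 0.56). On slide 1 both DGTT2 arrays lay above both WT arrays, with a difference of 0.45, while on slide 2 the genotypes overlapped and the difference was -0.32. The difference between the slides in this contrast was -0.77 (SE 0.38, adjusted p = 1, limma), and 0 of the 10 genes and 0 of all features passed for it (0 of the 10 and 2.33% of all features at an unadjusted p under 0.05).

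SVP, the partner of FLC that acts in response to temperature, was at 15.08, 14.74, 14.49 and 15.05 in WT replicates 1 to 4 and at 14.90, 14.66, 14.73 and 14.95 in DGTT2. All DGTT2 values lay inside the WT range, and the log2 difference was -0.03 (SE 0.15, 95% interval -0.37 to 0.30). Values this close to the upper end of the scale, which ran to 15.99, may be compressed, which was not measured. SOC1 was at 13.51, 13.49, 13.64 and 13.36 in WT and at 13.51, 13.20, 13.39 and 13.71 in DGTT2. Here the lowest and the highest arrays were both DGTT2, replicates 2 and 4, with a difference of -0.05 (SE 0.13, 95% interval -0.33 to 0.23). The 7 differences of TSF, CDF1, CDF2, CDF5, FLC, SVP and SOC1 were small enough to change sign when some single arrays were left out, whereas those of CO, FT and CDF3 kept theirs.

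Arrays of the same genotype differed from each other in several of these genes at once. DGTT2 replicate 2 was the lowest DGTT2 array in 6 of the 10, namely CO, FT, CDF1, CDF3, SVP and SOC1. DGTT2 replicate 4 was the highest DGTT2 array in CO, FT, SVP and SOC1 and the lowest in CDF2, CDF5 and FLC. DGTT2 replicate 3 was the highest in all 4 CDF genes. Among WT arrays, replicate 1 was the highest in CO, CDF2, CDF3 and SVP. Replicates 2, 3 and 4 were each the lowest WT array in 3 genes. These were CDF1, CDF3 and CDF5 for replicate 2, TSF, CDF2 and SVP for replicate 3, and CO, FLC and SOC1 for replicate 4. Between slides 0 of the 10 genes passed the test and neither did any feature (adjusted p under 0.05, limma, genotype as a second term), while 1 of the 10, TSF, and 9.31% of all features had an unadjusted p under 0.05.

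Relations between regulator and target across the 8 arrays were computed for 5 pairs, with permutation p-values (two-sided), and 0 passed. Uncentred values and values centred on genotype were adjusted separately, each over the 5 pairs. For FLC and SOC1 the Pearson r was -0.30 (exact permutation p = 0.477, adjusted 0.497) and the Spearman rho -0.24 (exact permutation p = 0.582, adjusted 0.831), with an r of 0.02 without the 2 arrays farthest from the median of FLC. In the other 4 pairs CO or FT is a partner, and there the genotypes lay apart. Values centred on the mean of their genotype are therefore given first, and uncentred values include the difference between genotypes. The permutation p-values of centred values treat all 8 as exchangeable, which centring does not keep. These p-values are therefore approximate and may be too small. For CDF1 and CO the centred values gave an r of 0.32 (permutation p = 0.445, adjusted 0.49), with -0.23 over the 4 WT arrays and 0.56 over the 4 DGTT2 arrays. Uncentred, r was 0.29 (exact permutation p = 0.497, adjusted 0.497), and -0.61 without the 2 arrays farthest from the median of CDF1. On slide 1 it was -0.997 and on slide 2 it was 0.73.

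The 3 pairs with FT rest on a feature not shown to lie above background. CO and FT had a centred r of 0.60 (permutation p = 0.116, adjusted 0.194), with -0.26 in WT and 0.92 in DGTT2. FT and SOC1 had 0.73 (permutation p = 0.0399, adjusted 0.145), with 0.02 in WT and 0.95 in DGTT2, where replicates 2 and 4 were the lowest and the highest array in both genes. FLC and FT had -0.69 (permutation p = 0.058, adjusted 0.145), with -0.68 in WT and -0.71 in DGTT2. Uncentred, r was -0.55 for CO and FT, 0.31 for FT and SOC1 and -0.34 for FLC and FT. Each adjusted p was 0.497 (exact permutation). On slide 1 the uncentred r of FLC and FT was 0.73, and on slide 2 it was -0.80. Without the 2 arrays farthest from the median of FLC it was 0.62. For CO and FT the slides gave -0.87 and -0.29, and for FT and SOC1 -0.28 and 0.57. Within a genotype or a slide there were 4 arrays, too few to test a relation.

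The features whose pattern over the 8 arrays was most like that of CO were PPC4, a phosphoenolpyruvate carboxylase, EXPB2, a beta-expansin, and AT5G30460. Likeness was the root mean square difference between values centred on each feature's mean. It was 0.103 for PPC4, 0.111 for EXPB2 and 0.120 for AT5G30460, while CO itself varied by 0.339 about its mean. PPC4 was dim, at a mean of 5.40, and EXPB2 near the pseudogene median at 6.12. For FT, which varied by 0.157, the closest were SK1, a shikimate kinase, at 0.0515, AT4G22840 at 0.0520 and USP, a UDP-sugar pyrophosphorylase, at 0.0603. These features were picked as the nearest among all on the array, so likeness of this size carries no test, and the likeness of a dim gene such as FT includes its noise.

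**Figure D3:**
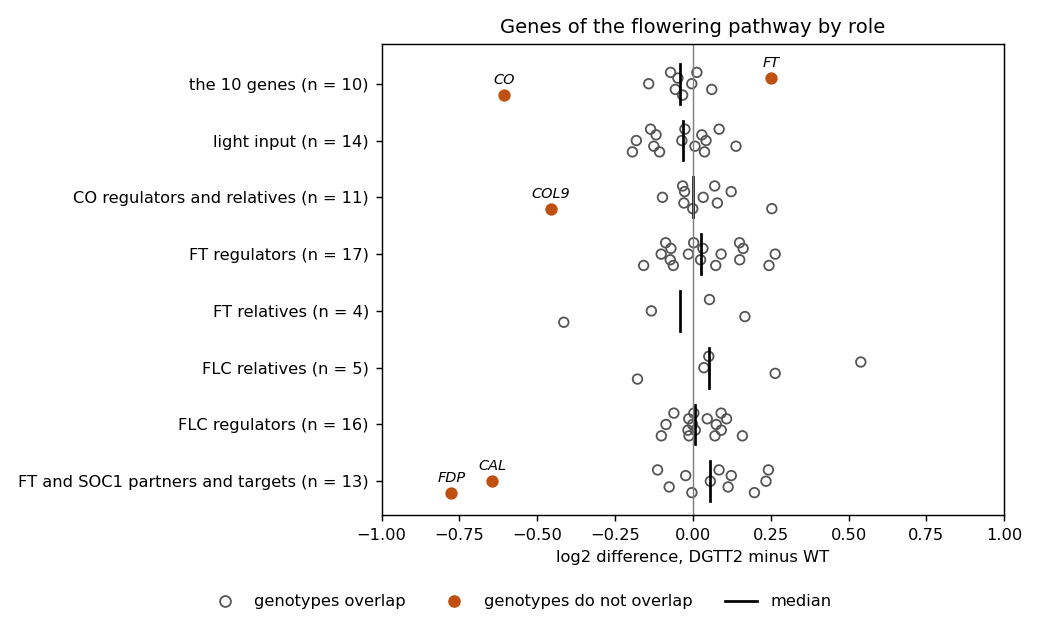
Log2 difference between DGTT2 and WT for the 10 genes and for 80 other genes of flowering control in 7 lists, 1 point per gene, with the median of each list as a bar and filled points for genes whose genotypes do not overlap. Beside CO and FT, filled points are COL9 at -0.46, FDP at -0.78 and CAL at -0.64, and all list medians lie close to 0.

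The rest of the flowering pathway was described through 80 genes in 7 lists by role. Over all features 0 of the 80 passed (limma), and 3 (3.75%) had an unadjusted p under 0.05, against 10.5% of all features. These 3 were lower in DGTT2, as were 5.96% of all features at that p, and 0 of the 80 were higher, against 4.56%. The same 3, COL9, FDP and CAL, were those whose genotypes did not overlap, against 3.32% of all features with DGTT2 lower. The median difference of the 80 was 0.007, and 43 had a higher and 37 a lower mean in DGTT2. Of the 21 genes named from these lists by smallest p, 14 had differences that moved by over 1.5 times when some single array was left out, and SPA3, CRY2, COL9, MAF1, VRN2, CAL and FDP did not.

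Light receptors and the proteins that control CO protein stability held 14 genes, with 0 at an unadjusted p under 0.05 and a median of -0.03. Those of smallest p were SPA3, of the complex that marks CO for breakdown in the dark, at -0.19 (SE 0.09), CRY2, the blue-light receptor that stabilises CO, at -0.13 (SE 0.09), and PHYA, the far-red receptor, at -0.18 (SE 0.13). FKF1 and GI, the evening-phased pair that removes the CDF proteins, were at 15.24 and 14.88 in WT and at 15.27 and 14.77 in DGTT2, with differences of 0.03 (SE 0.09) and -0.11 (SE 0.11). Like SVP, FKF1, GI and CRY2 (15.57 in WT) lay near the upper end of the scale, where values may be compressed.

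Among 11 regulators and relatives of CO, 1 had an unadjusted p under 0.05. This was COL9, a CO-like protein known as a repressor of CO and FT expression. It was at 14.33, 14.34, 14.02 and 14.02 in WT replicates 1 to 4 and at 13.68, 13.62, 13.97 and 13.62 in DGTT2. All DGTT2 arrays lay below all WT arrays, replicate 3 by little, with a log2 difference of -0.46 (SE 0.13, adjusted p = 0.226, limma), -0.35 on slide 1 and -0.56 on slide 2. FBH1, a bHLH activator of CO, was at 0.25 (SE 0.13) and COL3 at 0.12 (SE 0.12). The median of these 11 was -0.0004.

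The 17 regulators of FT had 0 genes at an unadjusted p under 0.05 and a median of 0.02. TOE1, an AP2-type repressor of FT, was at 0.15 (SE 0.11), NF-YC3, a subunit of the complex through which CO binds, at 0.16 (SE 0.13), and PIF5, a bHLH factor of light signalling, at 0.15 (SE 0.12). The 4 relatives of FT likewise had 0. BFT, a relative that delays flowering, was at -0.41 (SE 0.25), with 0.19 on slide 1 and -1.02 on slide 2. TFL1, the antagonist of FT at the shoot tip, was at 0.17 (SE 0.26), and -0.01 without WT replicate 2, and MFT, known from seed germination, at -0.13 (SE 0.20), and -0.003 without DGTT2 replicate 1.

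Of the 5 relatives of FLC, 0 had an unadjusted p under 0.05, and the mean was higher in DGTT2 in 4 of them. With slide as a block 1 had such a p, MAF5 (adjusted p = 0.370, limma), against 3484 of all 30361 features. The median difference of the 5 was 0.05. MAF5 was at 0.54 (SE 0.27), MAF1, which represses flowering together with SVP, at -0.18 (SE 0.10), and MAF4 at 0.26 (SE 0.19), with -0.08 on slide 1 and 0.60 on slide 2. Without WT replicate 1, MAF4 was at 0.44. MAF5 was at 8.97, 7.93, 7.87 and 7.77 in WT replicates 1 to 4 and at 8.90, 8.51, 8.97 and 8.33 in DGTT2. WT replicate 1 was thus as high as the highest DGTT2 array, and without it the difference in MAF5 was 0.82. The 16 regulators of FLC had 0 and a median of 0.01, with VRN2, which keeps FLC silent after cold, at 0.09 (SE 0.09), VIN3, which starts that silencing, at 0.16 (SE 0.16) and dim, and FPA, an RNA-binding protein that lowers FLC, at 0.11 (SE 0.11). Without WT replicate 1, VIN3 was at 0.04 and FPA at 0.02, and both changed sign between slides, from 0.43 to -0.11 in VIN3 and from 0.28 to -0.06 in FPA.

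Partners and targets of FT and SOC1 numbered 13, with 2 at an unadjusted p under 0.05 and a median of 0.06. FDP is the close relative of FD, the bZIP partner of FT. It was at 9.53, 9.77, 9.48 and 9.85 in WT replicates 1 to 4 and at 8.32, 9.26, 9.41 and 8.53 in DGTT2. DGTT2 replicates 1 and 4 were lowest and replicate 3 came close to the WT range, with a log2 difference of -0.78 (SE 0.24, adjusted p = 0.28, limma). CAL, a MADS-box gene of the flower meristem, was dim in both genotypes, at 5.66 ± 0.28 in WT and 5.02 ± 0.06 in DGTT2 (SD, n = 4 each), a difference of -0.64 (SE 0.14, adjusted p = 0.14, limma), and no fold is given. AGL24, which acts with SOC1, was at 0.23 (SE 0.17).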

How the data were processed

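RNA of 8 leaf samples was measured on one-colour NimbleGen arrays. The table that the authors deposited holds a log2 value per feature and array; the submitters' processing notes name RMA and Partek for it. The sources used here do not give their settings, the probes of a feature or the build. That the scale is log2 was inferred from the range of values, 4.20 to 15.99. The 10 genes were found by locus; RefSeq's TAIR10.1 table gave the same symbol for 8, SOC1 stands there as a synonym, and CDF5 was kept by locus. Genes, lists and tests were chosen with earlier results of these data known.

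Deposited values were tested by moderated linear models of genotype (two-sided; limma 3.58.1 under R 4.3.3), adjusted over 30361 features, and the fit was tested on simulated data. Named were the 10 genes, the 3 genes of smallest p in each list and, for CO and FT, the 3 nearest features. Other loci named are tissue markers and FKF1, GI, SEP3, LFY, AP1 and FUL, which were chosen after their values were seen. Alternatives were a second quantile normalization, median centring, a filter on dim features, array weights, trended and robust eBayes, a block of slide or of replicate number, and each array left out. No detection calls were used. Precision is limited by the number of arrays.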

Additional observations from a re-analysis of the deposited data

Results flagged for a closer look

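In 3 of the 20 groups of 4 arrays, 1 array lay apart from the other 3 for the range of its group. Its gap to the nearest array took up most of that range, which chance gives in about 1 of 20 groups. TSF in DGTT2 replicate 3 was at 5.46, with the next array at 6.11. CDF3 in DGTT2 replicate 2 was at 13.71, with the next at 13.86, and CDF5 in WT replicate 2 at 12.36, with the next at 12.50. CDF3 and CDF5 varied little within genotypes, with residual SDs of 0.09 each, so their gaps are small in log2 units.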

How the results depend on the processing

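The count of the 10 genes called by genotype was 0 under all 15 alternatives, and so were the counts between slides, for the genotype by slide interaction and for the 5 pairs under theirs. The count of all features called, 22, was 13 with arrays centred on their median, 69 with slide as a fixed block and 46 with eBayes using trend and robust, and between 5 and 39 without single arrays. With the replicate number as a block it was 3. Same-numbered arrays of both genotypes also shared a slide. Their deviations from the genotype mean correlated at -0.03 to 0.20, and 2 of 8 arrays correlated best with their own number. A pairing of samples by number beyond the slide was therefore not shown. The difference in CO kept its sign throughout, with an adjusted p between 0.104 and 0.295, as did that in FT (0.336 to 0.672; FT is absent once dim features are left out). TSF, at -0.003, was at 0.047 after a second quantile normalization and 0.013 with array weights, and CDF5, at 0.01, was at -0.025 after median centring and -0.0033 with array weights. Without single arrays, the difference lay between -0.13 and 0.16 in TSF, -0.15 and 0.064 in CDF1, -0.10 and 0.039 in CDF2, -0.035 and 0.055 in CDF5, -0.044 and 0.24 in FLC, -0.15 and 0.047 in SVP, -0.13 and 0.036 in SOC1 and -0.0071 and 0.33 in TFL1. The cause of these changes was not tested.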
